A study of Mus musculus with 2 samples.

Results

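The genes described here are 5 transcription factor genes, Hnf4a, Foxa1, Foxa2, Foxa3 and Foxo1, chosen by name out of the 33038 genes with a row in either count table. They were followed across the hormone-producing and hormone-free cells of dissociated pancreatic islets from male C57BL/6J mice of 8 weeks, labelled control and with no other treatment named. RevGel-seq, which pairs each cell with a barcoded bead inside a reversible gel, gave 2 libraries of 10000 input cells each. Per the study's methods both were technical replicates of the same islet preparation, handpicked after collagenase had been injected through the bile duct, so their spread holds no difference between animals. Cells were grouped by which of insulin (Ins1 and Ins2 together), Gcg, Sst and Ppy reached 1% of a cell's UMIs (unique molecular identifiers, each standing for 1 captured transcript), and none of the 5 genes took part in that grouping.

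HNF4A is a nuclear receptor of liver, kidney, gut and islet, and its inherited loss causes a monogenic diabetes of the young. The FOXA proteins are pioneer factors that bind forkhead sites in closed chromatin and are needed to form endodermal organs, the pancreas among them. FOXO1 is the forkhead factor that insulin signalling removes from the nucleus through AKT phosphorylation, and in the beta cell it is known for guarding cell identity under metabolic stress.

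On GRCm38, with the GENCODE M21 annotation, Hnf4a lies at chr2:163506808-163572910 on the plus strand and Foxa2 at chr2:148042877-148046969 on the minus strand. Foxo1 lies at chr3:52268336-52353221 on the plus strand, Foxa3 at chr7:19013284-19023538 and Foxa1 at chr12:57540628-57546916, both on the minus strand. Counts came from exons only and cover all transcripts of a gene, so transcripts from the 2 Hnf4a start sites cannot be told apart. An antisense gene, Hnf4aos, overlaps Hnf4a and had at most 1 UMI in any group of either library. Whether counting used the strand is not given in the sources used here, so sense and antisense reads cannot be told apart. Gm38034, an unclassified transcript inside Foxo1, had between 1 and 33 UMIs per group.

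The 250 bases before each RefSeq start site (GRCm38.p6, 8 starts for the 5 genes) were searched on both strands for the forkhead core TGTTTAC, its FOXO form GTAAACAA, the short homeodomain motif GTTAAT and the short HNF4 motif CAAAGT. Each GTAAACAA also holds the reverse complement of the forkhead core. Matches fell in 3 of the 8 windows, and each is shown within 30 bases on the gene's own strand, because these genes are known to regulate each other and the letters let a reader see which motif lies where. Capitals mark the matches, which overlap each other at Foxa1 and Foxa2. A match is a description and not a bound site.
Foxa1, chr12:57546232-57546261, minus strand: tactgctttGTAAACAAAGTgagggccagg
Foxa2, chr2:148045621-148045650, minus strand: ttgagataatATTAACTTTGtgatcaaata
Hnf4a, downstream start, chr2:163547066-163547095, plus strand: cgggggtgATTAACcATTAACtcctacccc
The Foxa1 stretch holds the forkhead core, the FOXO form and the HNF4 motif, the Foxa2 stretch GTTAAT and the HNF4 motif, and the Hnf4a stretch GTTAAT at 2 places. Those of Foxa2 and Hnf4a are reverse complements of the motifs as spelled. Over all 32851 windows of this length, 3.17% held TGTTTAC, 1.07% GTAAACAA, 6.43% GTTAAT and 12.6% CAAAGT. The windows of Foxa3, of Foxo1, of the upstream Hnf4a start and of the other Foxa2 starts held none of these letters.

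Library 1 held 735 cells with 15931154 UMIs and library 2 held 748 cells with 17440292, and no barcode occurred in both. Levels are given as CPM, here the UMIs of a gene per 1000000 UMIs with the 5 hormone genes left out, and the other genes held 73.8% and 73.5% of the UMIs. Intervals are 95% exact intervals that cover counting error only. In libraries 1 and 2 there were 182 and 190 cells with insulin alone, 182 and 174 with Gcg, 35 and 23 with Sst, 54 and 68 with Ppy, 65 and 86 with Gcg and Ppy, 77 and 71 with Sst and Ppy, and 91 and 92 with no hormone. Insulin, Gcg and Ppy cells had their own marker list as the highest of the 4 endocrine lists: the summed beta-cell list reached 54311 and 55877 CPM in insulin cells, the alpha list 47402 and 48976 CPM in Gcg cells and the gamma list 54515 and 41950 CPM in Ppy cells. In Sst cells the delta list, at 7087 and 7037 CPM, was higher than in any other single-hormone group, but the beta list (15248 and 15541 CPM) and the gamma list (12895 and 13168 CPM) stood above it.

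The hormone-free cells were not 1 cell type. By the marker list with most UMIs, 27 and 33 of them were endothelial, 42 and 41 leukocyte, 10 and 10 ductal, 5 and 6 pan-endocrine and 7 and 2 mesenchymal, and none led with acinar or Schwann markers. The ductal list (Krt19, Krt18, Krt8, Sox9, Spp1, Muc1, Epcam) picked cells that all had Krt19 and Epcam, yet 12 of these 20 cells also had UMIs of Cdx1 or Cdx2, intestinal transcription factors, and 0 UMIs of Spp1. They are called ductal-list cells here after the list and are given no cell type name. Because these 20 cells held 50% or more of the hormone-free UMIs of Hnf4a, Foxa1, Foxa2 and Foxa3 in both libraries, comparisons with hormone-free cells are given with and without them.

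Foxa2, a FOXA factor active from early endoderm to adult islet, was higher in every hormone group than in hormone-free cells. Its level was 92.6 and 80.0 CPM in insulin cells (libraries 1 and 2), 81.5 and 77.6 in Gcg cells, 96.7 and 124 in Sst cells and 111 and 108 in Ppy cells. It was 114 and 108 CPM in cells with Gcg and Ppy and 95.8 and 96.0 in cells with Sst and Ppy, against 13.8 and 2.78 CPM in hormone-free cells. Every hormone group lay above both hormone-free values. Both values of insulin cells and of Gcg cells lay below those of Ppy cells and of cells with Gcg and Ppy. In the pairs of hormone groups tested below, no edgeR adjusted p for Foxa2 was under 0.05. Fitted over all genes with edgeR's quasi-likelihood test, the log2 fold change against hormone-free cells ranged from 3.32 ± 0.33 (SE) in Gcg cells (adjusted p = 7.67e-07) to 3.79 ± 0.33 in cells with Gcg and Ppy (adjusted p = 3.11e-07). The hormone-free level itself differed between the libraries, and with library 1 alone these values ran from 2.49 to 2.96, with library 2 alone from 4.33 to 4.89.

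**Figure D1:**
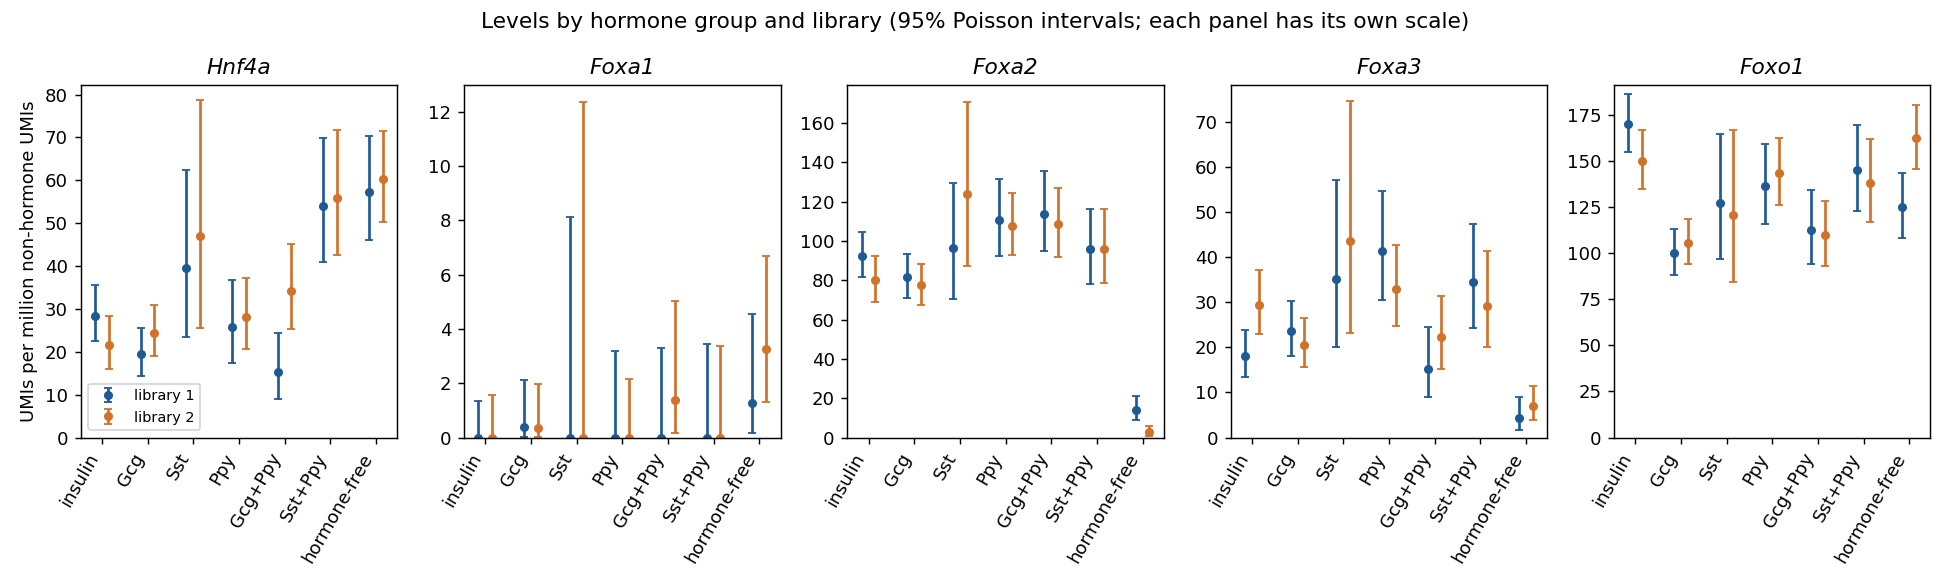
Level of each gene (y axis, CPM, a separate scale per panel) by hormone group (x axis) in library 1 (blue) and library 2 (orange), with 95% Poisson intervals. Foxa2 and Foxa3 are lowest in hormone-free cells, Hnf4a is highest in hormone-free cells and cells with Sst and Ppy, and Foxa1 is at most 3.24 CPM.

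Foxa2 was almost missing from the cells that make up most of the hormone-free group. Endothelial-list cells had 0 UMIs in both libraries, which allows up to 3 counts per library, and leukocyte-list cells had 1 and 0. The ductal-list cells held 18 of the 22 Foxa2 UMIs of hormone-free cells in library 1 and 3 of 6 in library 2, and pan-endocrine-list cells held 3 and 3. Left without the ductal-list cells, the hormone-free group had 3.29 and 1.65 CPM of Foxa2, and the log2 fold changes rose to between 4.94 and 5.42, resting on 4 and 3 remaining UMIs.

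Foxa3, the forkhead paralog best known from liver, was likewise lowest in hormone-free cells, at low counts. Its level was 18.1 and 29.5 CPM in insulin cells, 23.6 and 20.5 in Gcg cells, 35.2 and 43.6 in Sst cells and 41.3 and 32.8 in Ppy cells. In cells with Gcg and Ppy it was 15.2 and 22.3 CPM, in cells with Sst and Ppy 34.4 and 29.3, and in hormone-free cells 4.40 and 6.95. Each hormone group was again above both hormone-free values. The log2 fold change ran from 1.63 ± 0.40 in cells with Gcg and Ppy (edgeR, adjusted p = 0.00317) to 2.56 ± 0.36 in Ppy cells (adjusted p = 3.22e-05). Among hormone-free cells the ductal-list cells held 5 of the 7 Foxa3 UMIs in library 1 and 13 of 15 in library 2. A single ductal-list cell of library 2 with 8450 UMIs of Tff2 and 675 of Muc6, gastric gland mucosa genes, held 12 of those 13. With the ductal-list cells left out, 2 Foxa3 UMIs remained in each library and the fold changes lay between 3.65 and 4.59.

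Foxa1, which shares much of its role with Foxa2 in the developing gut and pancreas, was close to undetected in these islets. It had 3 UMIs in library 1 and 10 in library 2 over all cells, and it did not pass the filter on low counts, so 4 of the 5 genes entered the tests. Insulin, Sst, Ppy and Sst and Ppy cells had 0 UMIs in both libraries, which in insulin cells allows up to 1.11 and 1.26 CPM. Gcg cells had 1 UMI in each library and cells with Gcg and Ppy 0 and 2. The 2 and 7 UMIs of hormone-free cells were all in ductal-list cells with Cdx1 or Cdx2, and 6 of them in the cell with Tff2 and Muc6. The depth does not allow a statement on Foxa1 in endocrine cells beyond these limits.

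Hnf4a was concentrated in few cells, with 30.9% and 31.3% of its UMIs in the 10 cells of each library that had most. Its level was 28.4 and 21.5 CPM in insulin cells, 19.4 and 24.4 in Gcg cells, 39.6 and 46.9 in Sst cells and 25.8 and 28.1 in Ppy cells. Cells with Gcg and Ppy had 15.2 and 34.1 CPM, the widest gap between libraries, and cells with Sst and Ppy 54.0 and 55.8, while hormone-free cells had 57.2 and 60.2. The hormone-free values were the highest of any group, next to cells with Sst and Ppy, whose intervals overlapped theirs. Against hormone-free cells the log2 fold change was -1.25 ± 0.26 in insulin cells (edgeR, adjusted p = 0.000725), -1.47 ± 0.26 in Gcg cells (0.000207), -1.19 ± 0.27 in Ppy cells (0.00196) and -1.28 ± 0.28 in cells with Gcg and Ppy (0.00143). It was -0.64 ± 0.33 in Sst cells (adjusted p = 0.125) and -0.25 ± 0.26 in cells with Sst and Ppy (0.443), neither past the threshold of 0.05.

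That lower Hnf4a in hormone cells turned round when 20 cells were set aside. Only 9.89% and 12.0% of hormone-free cells had any Hnf4a UMI, against 28.0% and 17.4% of insulin cells, at median depths of 13153 and 14926.5 against 11753 and 10187.5 non-hormone UMIs. The ductal-list cells held 94.5% of the hormone-free Hnf4a UMIs in library 1 and 97.7% in library 2, at 230 and 369 CPM. Endothelial-list cells had 0 and 1 Hnf4a UMIs and leukocyte-list cells 0 and 2. With the ductal-list cells left out, hormone-free cells had 5 and 3 Hnf4a UMIs, at 4.11 and 1.65 CPM. Hnf4a was then higher in every hormone group, from 2.90 ± 0.48 on the log2 scale in Gcg cells (edgeR, adjusted p = 0.000116) to 4.12 ± 0.45 in cells with Sst and Ppy (2.83e-06). The ductal-list cells were left out after their share of the Hnf4a UMIs had been seen, so these p-values are no independent test. Leaving out cells deeper than 3 times their library's median UMIs, 3 ductal-list cells of library 1 among them, moved the Ppy value to -0.67 and ended its call (adjusted p = 0.261), and did the same in cells with Gcg and Ppy (-1.02, edgeR adjusted p = 0.0874).

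**Figure D2:**
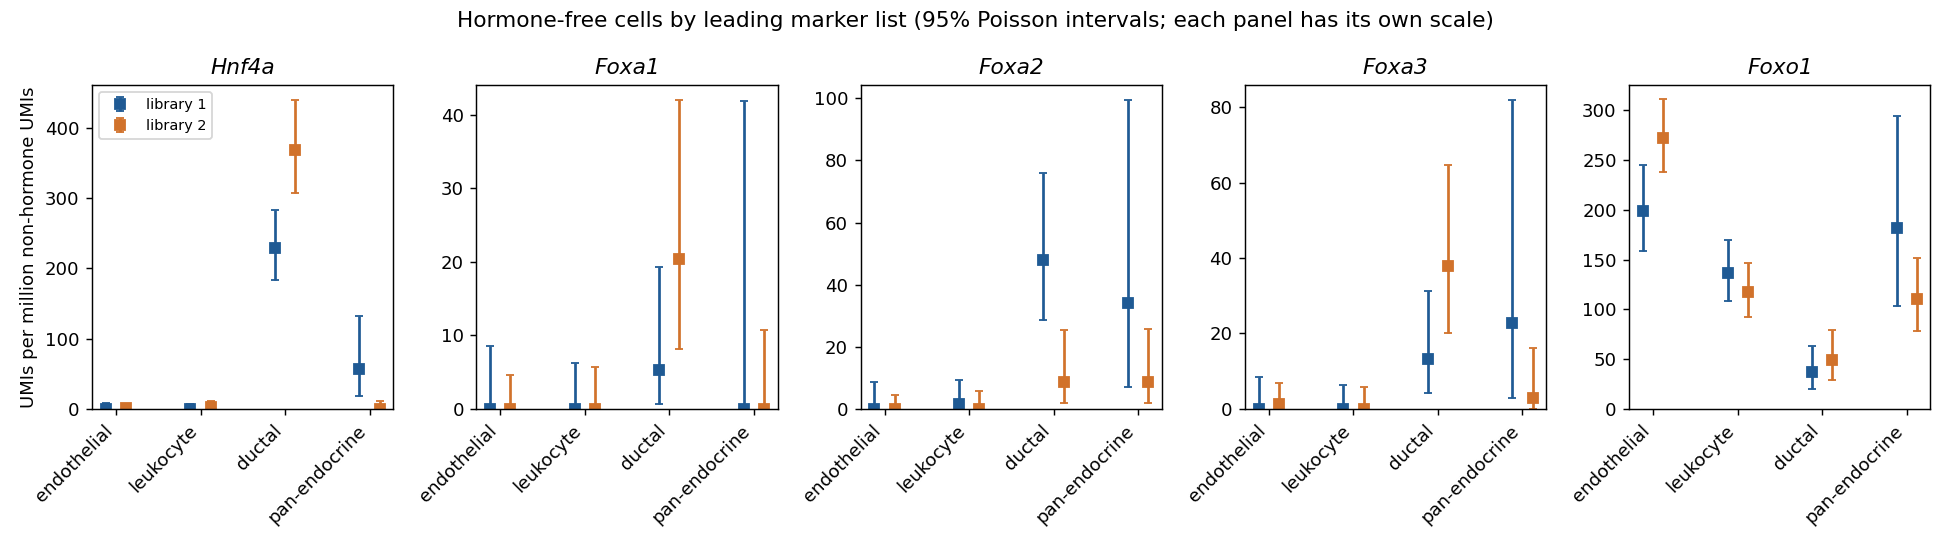
Level of each gene (y axis, CPM, a separate scale per panel) in hormone-free cells grouped by the marker list with most UMIs (x axis), for library 1 (blue) and library 2 (orange) with 95% Poisson intervals; the few mesenchymal-list cells are not drawn. Hnf4a stands at 230 and 369 CPM in ductal-list cells and near 0 in endothelial-list and leukocyte-list cells. Among the lists drawn, Foxo1 is lowest in ductal-list cells.

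Within the 20 ductal-list cells, the Foxa2 UMIs and nearly all Hnf4a UMIs lay in different cells. The 12 cells with Cdx1 or Cdx2 UMIs, 4 in library 1 and 8 in library 2, had 4 to 35 Hnf4a UMIs each, 386 and 441 CPM in sum, and 0 Foxa2 UMIs. The 8 cells without them, 6 and 2, all had Spp1, had 0 or 1 Hnf4a UMI each, 18.8 and 17.1 CPM in sum, and had Foxa2 at 113 and 51.4 CPM. The Foxa2 value of library 2 came from 3 UMIs in 1 cell. A list of 12 intestinal genes (Vil1, Cdh17, Fabp1 and others) had 124 to 2621 UMIs in each cell with Cdx1 or Cdx2 and 1 to 4 in each of the others. The split on Cdx1 and Cdx2 and the intestinal list were chosen after the values had been seen, so these counts are a description with no test.

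**Figure D3:**
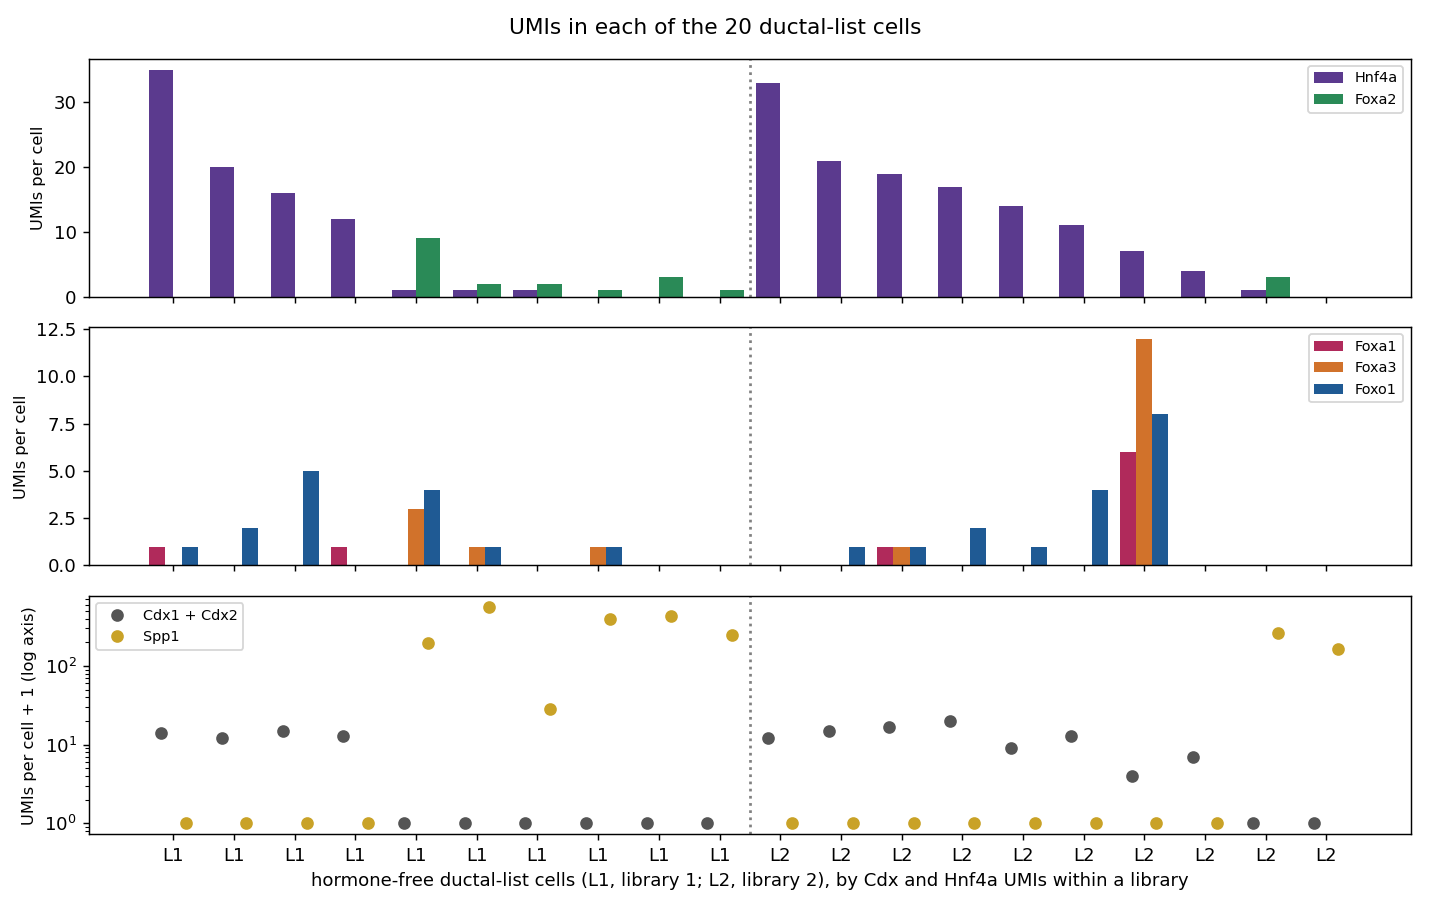
UMIs in each of the 20 hormone-free ductal-list cells (x axis, library 1 left and library 2 right of the dotted line), with Hnf4a and Foxa2 in the top panel, Foxa1, Foxa3 and Foxo1 in the middle and Cdx1 + Cdx2 and Spp1 in the bottom panel (counts + 1, log axis). Cells with Cdx1 or Cdx2 carry the Hnf4a UMIs and no Foxa2, and the 8 cells with Spp1 carry at most 1 Hnf4a UMI, with Foxa2 UMIs in 7 of them.

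Foxo1 was found in every group, hormone-free cells included. It was 170 and 150 CPM in insulin cells, 100.2 and 106 in Gcg cells, 127 and 121 in Sst cells and 137 and 144 in Ppy cells. In cells with Gcg and Ppy it was 113 and 109.9 CPM, in cells with Sst and Ppy 145 and 138, and in hormone-free cells 125 and 163. The hormone-free values enclosed those of Ppy cells and of cells with Sst and Ppy and lay above those of Gcg cells. Foxo1 was lower than in hormone-free cells in Gcg cells (log2 fold change -0.55 ± 0.14, edgeR adjusted p = 0.00360) and in cells with Gcg and Ppy (-0.44 ± 0.15, adjusted p = 0.0193). It did not pass the threshold in insulin cells (0.13 ± 0.14, 0.446), Sst cells (-0.40 ± 0.17, 0.0700), Ppy cells (-0.12 ± 0.14, 0.503) or cells with Sst and Ppy (-0.18 ± 0.14, 0.310).

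Foxo1 in hormone-free cells lay mainly in endothelial-list and leukocyte-list cells. Endothelial-list cells had 198 and 273 CPM, leukocyte-list cells 137 and 117, and ductal-list cells 37.4 and 49.4, and a Foxo1 UMI was present in 96.3% and 97.0% of endothelial-list cells. With the ductal-list cells left out the hormone-free level was 152 and 184 CPM. Foxo1 was then lower in Gcg (-0.82 ± 0.13, edgeR adjusted p = 8.3e-05), Sst (-0.67 ± 0.16, 0.00334) and Ppy cells (-0.40 ± 0.13, 0.0209) and in both groups with Ppy and another hormone (-0.72 and -0.46). In insulin cells it was -0.15 ± 0.13 (adjusted p = 0.335), of the other sign than with all hormone-free cells.

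**Figure D4:**
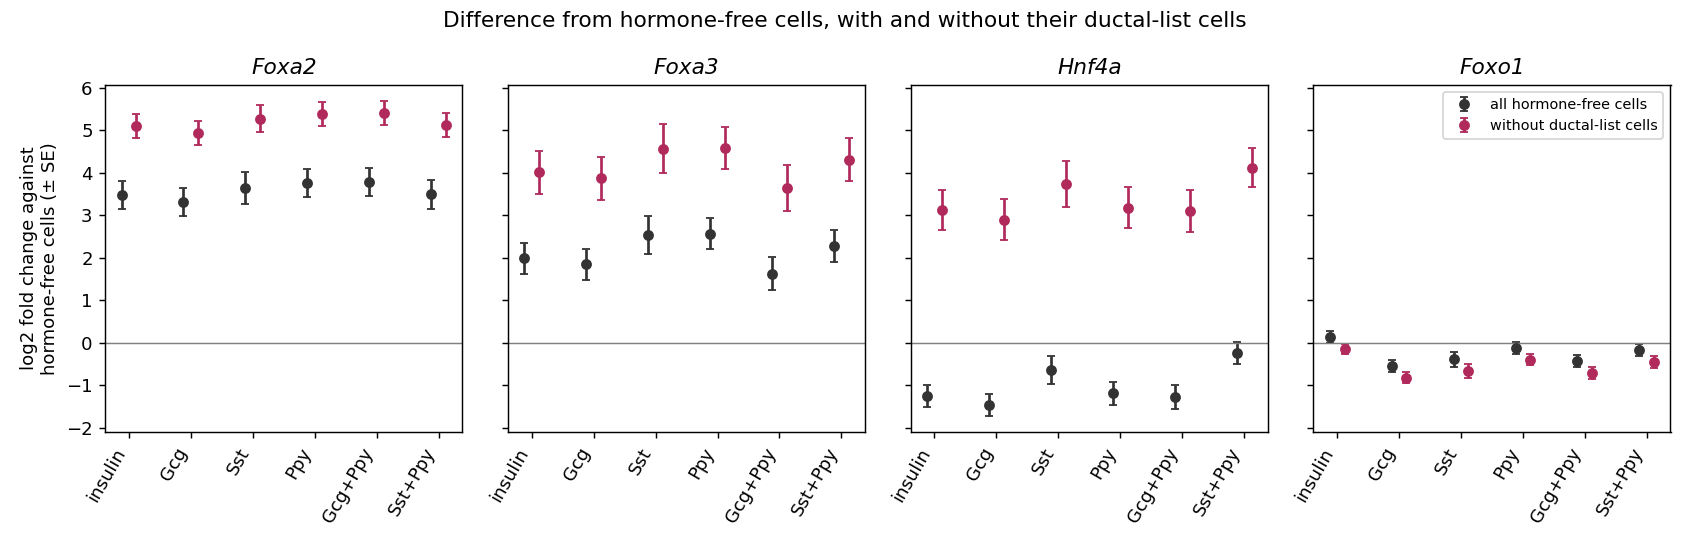
Log2 fold change of 4 genes (y axis, ± SE) in each hormone group (x axis) against all hormone-free cells (black) and against hormone-free cells without the 20 ductal-list cells (red). Foxa2 and Foxa3 lie above 0 in both, Hnf4a moves from below 0 to above 0, and Foxo1 shifts down by about the same amount in every group.

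These calls stand against a background in which about every other gene differs between hormone and hormone-free cells. Of the 14955 genes tested, 56.8% were called in insulin cells (25.9% higher and 30.9% lower), where 3 of the 4 genes passed, 2 higher and 1 lower. In Gcg cells 55.1% were called (25.5% higher, 29.5% lower) and 4 of 4 passed, 2 each way. In Sst cells 44.7% were called (19.2% higher, 25.6% lower) and 2 of 4 passed, both higher. In Ppy cells 52.1% were called (23.7% higher, 28.4% lower) and 3 of 4 passed, 2 higher and 1 lower. For cells with Gcg and Ppy it was 51.2% with 4 of 4, and for cells with Sst and Ppy 52.6% with 2 of 4. Without the ductal-list cells the shares called were 56.3% in insulin, 53.3% in Gcg, 44.8% in Sst, 51.0% in Ppy, 49.6% in Gcg and Ppy and 52.1% in Sst and Ppy cells, with 3 of 4 genes called in insulin cells and 4 of 4 in the others. The number of the 5 genes called is therefore no result in itself, and the sizes of the differences are what the data give.

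The 4 single-hormone groups were then compared with each other to place each gene among the endocrine cells. Foxo1 was higher in insulin cells than in Gcg cells by 0.67 ± 0.14 on the log2 scale (edgeR, adjusted p = 0.00175), in both libraries and under all 12 alternatives. It was also higher in insulin than in Sst cells (0.52 ± 0.17, adjusted p = 0.0485), but this call was lost under 7 of 12 alternatives, with adjusted p up to 0.231. Insulin and Ppy cells, next to each other in that order, did not differ beyond their spread (0.25 ± 0.14, adjusted p = 0.245), nor did Gcg and Sst cells (-0.15 ± 0.17, 0.659). Gcg against Ppy cells gave -0.43 ± 0.14 (adjusted p = 0.0769).

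Hnf4a, Foxa2 and Foxa3 passed the threshold in none of the 6 pairs of single-hormone groups. The largest differences were those of Hnf4a between Gcg and Sst cells (-0.83 ± 0.35, edgeR adjusted p = 0.152), Foxa3 between Gcg and Ppy cells (-0.71 ± 0.29, 0.156) and Foxa2 between Gcg and Ppy cells (-0.44 ± 0.23, 0.299). The Sst group held only 35 and 23 cells with 455071 and 298300 non-hormone UMIs, and 18 and 14 of its UMIs were Hnf4a, so a difference of moderate size could not be told from counting error there. In these pairs 1 of the 4 genes was called between insulin and Gcg cells, where 25.0% of all genes were, and 1 between insulin and Sst cells, where 14.5% were. None was called between insulin and Ppy (20.2% of all genes), Gcg and Sst (12.3%), Gcg and Ppy (9.49%) or Sst and Ppy cells (9.08%).

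None of the 4 genes was called between cells with and without Ppy beside another hormone. Cells with Gcg and Ppy against cells with Gcg alone gave log2 differences of 0.47 ± 0.24 for Foxa2, 0.20 ± 0.30 for Hnf4a, 0.10 ± 0.14 for Foxo1 and -0.22 ± 0.32 for Foxa3, with edgeR adjusted p of 0.920 or above. Cells with Sst and Ppy against cells with Sst alone gave 0.39 ± 0.34 for Hnf4a, 0.22 ± 0.17 for Foxo1, -0.15 ± 0.30 for Foxa2 and -0.25 ± 0.38 for Foxa3, with adjusted p of 0.887 or above. Few genes of any kind differed there, 0.0401% and 0.0134% of those tested. Intervals of these differences are wide, so equal levels are not shown.

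Seen cell by cell and before thinning, Foxo1 and Foxa2 were found in most cells of each hormone group compared. Hnf4a and Foxa3 were found in a minority, except for Foxa3 in Ppy cells of library 1 (51.9%). A Foxa2 UMI was present in 62.1% and 54.2% of insulin cells, 59.3% and 61.5% of Gcg cells and 79.6% and 77.9% of Ppy cells, against 9.89% and 4.35% of hormone-free cells and 0 of 60 endothelial-list cells. Ppy cells were also the deepest, with medians of 18605 and 20180 non-hormone UMIs against 12693 and 14559.5 in Gcg cells. After each cell was thinned to 5000 non-hormone UMIs, which left out 5 and 4 insulin cells and 1 and 1 Gcg cells as too shallow, Foxa2 remained in 36.7% and 35.5% of insulin, 31.5% and 29.5% of Gcg and 44.4% and 38.2% of Ppy cells, and in 4.40% and 1.09% of hormone-free cells. Thinned Hnf4a shares were 14.1% and 8.06% in insulin, 8.29% and 12.7% in Gcg and 26.0% and 21.1% in cells with Sst and Ppy. Those of Foxo1 were 50.3% and 43.0% in insulin and 33.7% and 43.9% in Gcg cells, where the libraries overlapped.

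**Figure D5:**
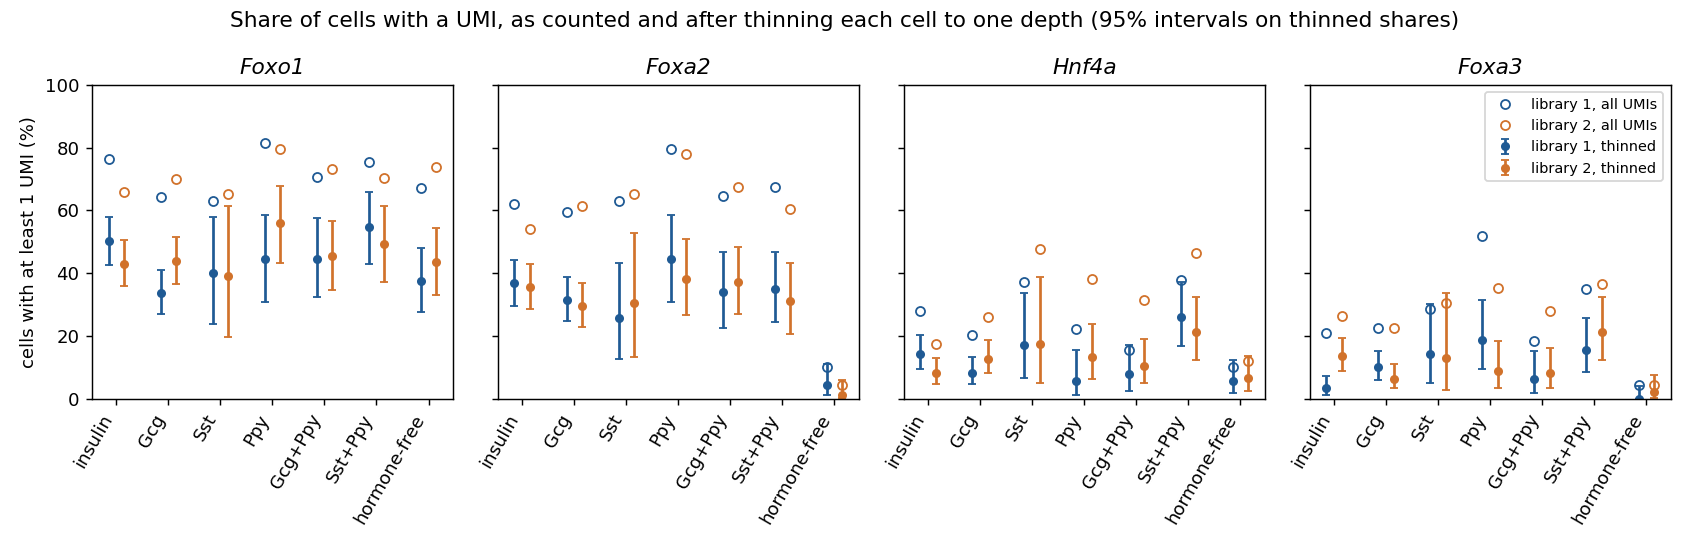
Share of cells with at least 1 UMI of a gene (y axis, %) by hormone group (x axis) and library, as counted (open circles) and after thinning each cell to 5000 non-hormone UMIs (filled circles, 95% exact intervals). Thinning lowers every share of the 4 genes drawn, and Foxa2 and Foxa3 stay rare in hormone-free cells, at 4.40% or less.

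Combinations of the genes in a cell were counted as well, over all of its UMIs. A UMI of both Foxa2 and Foxo1 was present in 52.2% and 41.6% of insulin cells, 41.2% and 44.8% of Gcg cells and 64.8% and 67.6% of Ppy cells, against 6.59% and 2.17% of hormone-free cells. None of the 5 genes was seen in 8.79% and 16.3% of insulin cells and in 27.5% and 21.7% of hormone-free cells. No cell of the 7 groups had all 5. These shares move with depth and were not tested.

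Within insulin cells, the insulin share of UMIs ranged from 7.52% to 64.0% in library 1 and from 2.02% to 72.8% in library 2. Split at each library's median, cells with more insulin had 162 and 126 CPM of Foxo1 and cells with less had 175 and 166. Foxa2 was 76.3 and 78.9 CPM with more insulin and 103 and 80.8 with less, and Hnf4a 25.4 and 17.9 against 30.3 and 23.9. All 3 were lower with more insulin in both libraries, while Foxa3 was 29.2 and 31.5 CPM against 10.9 and 28.1, the other way. The 95% intervals with more and with less insulin overlapped for Foxo1, Foxa2 and Hnf4a in both libraries, and for Foxa3 in library 2 only. Cells with more insulin were also shallower in other transcripts (medians of 9533 and 8053 UMIs against 15484 and 13001), and the part of depth in these differences was not tested.

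Among related HNF and ONECUT genes, Onecut2, a cut-homeobox factor of liver and pancreas, was 43.8 and 61.6 CPM in Gcg cells but 9.60 and 7.58 in insulin cells (libraries 1 and 2). It was lower than in hormone-free cells (43.4 and 70.9 CPM) in insulin (log2 fold change -2.76, edgeR adjusted p = 2.19e-06), Sst (-2.62) and Ppy cells (-2.55), and was not called in Gcg cells (-0.19). Against the other hormone-free cells, with the ductal-list cells left out, the values were 0.27, 0.42 and 0.47 in insulin, Sst and Ppy cells, none called, and 2.84 in Gcg cells (edgeR adjusted p = 2.24e-05). Onecut1 had 32 and 20 UMIs in hormone-free cells and 0 in every single-hormone group, and it was not among the genes tested once the ductal-list cells were left out. Hnf4g, the closest paralog of Hnf4a, had 6.27 and 9.69 CPM in insulin, 0.381 and 2.12 in Gcg and 13.2 and 6.02 in hormone-free cells, and was lower than in all hormone-free cells in Gcg (-2.86) and Ppy cells (-2.21). These directions turned without the ductal-list cells, with Hnf4g at 1.62 in Gcg and 2.27 in Ppy cells, neither called, and higher in insulin cells (4.22, edgeR adjusted p = 0.00429).

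Of the other FOXO genes, all 3 were tested. Foxo6 had 29 and 17 UMIs in insulin cells against 4 and 0 in hormone-free cells, and rose in insulin (log2 fold change 2.93, edgeR adjusted p = 0.00884) and Sst cells (3.03, 0.0337). Foxo4 fell in insulin cells (25.8 and 24.8 CPM against 47.2 and 40.3, adjusted p = 0.00398), and Foxo3 passed in no single-hormone group. The list's medians were -0.21, -0.03, 0.24 and 0.17 in insulin, Gcg, Sst and Ppy cells, beside -0.04, -0.02, -0.11 and -0.01 over all genes. Once the ductal-list cells were left out, Foxo6 was called higher in all 4 groups (2.70 to 3.63) and Foxo4 still lower in insulin cells (-0.82).

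Of 37 other forkhead genes, 25 had a row and 13 were tested. They counted 2 higher and 8 lower in insulin, 3 and 6 in Gcg, 2 and 4 in Sst and 2 and 3 in Ppy cells, with medians of -0.74, -0.28, -1.37 and -0.17. Without the ductal-list cells the counts were 2 and 7, 3 and 6, 2 and 5 and 3 and 4. With all hormone-free cells, 25.9% of all genes tested were higher and 30.9% lower in insulin cells. In Gcg cells these shares were 25.5% and 29.5%, in Sst cells 19.2% and 25.6% and in Ppy cells 23.7% and 28.4%. Foxp2 rose in Gcg cells (43.8 and 46.0 CPM against 5.03 and 1.39, log2 fold change 3.83, edgeR adjusted p = 4.19e-06), in Ppy (3.89) and in insulin cells (2.16). Foxf1, a gene of mesenchyme and vessel, had 51 and 56 UMIs in hormone-free cells and 0 to 2 in any single-hormone group. Foxc1, active in vessels, had 19 and 20 UMIs against 3 and 0 in insulin cells, and Foxj1, the factor of motile cilia, 12 and 4 against 3 and 0. In Ppy cells Foxj1 lay the other way, at 11.2 and 5.28 CPM against 7.54 and 1.85 (0.75, not called). With the ductal-list cells left out it was not called in insulin cells (-0.73) and was higher in Ppy cells (2.82, edgeR adjusted p = 0.0358).

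Known targets of HNF and FOXA factors moved in both directions. Of 15 listed, 13 were tested, with 8 higher and 4 lower in insulin, 5 and 7 in Gcg, 5 and 6 in Sst and 5 and 5 in Ppy cells (medians of 2.34, -2.03, -0.09 and 0.06). Among the genes with large differences were apolipoprotein genes of gut and liver, which fell in all 4 groups: Apoa1 had 339 and 187 CPM in hormone-free cells and at most 3.35 in any single-hormone group. Apob had 80 and 106 UMIs in hormone-free cells against 8 and 3 in insulin cells, and Apoc3 35 and 40 against 0 and 0. Without the ductal-list cells 9 of the list were tested, and 9, 4, 6 and 7 were higher in insulin, Gcg, Sst and Ppy cells, with 0, 1, 1 and 0 lower. Apoa1, Apob and Apoc3, lower in all 4 groups before, were not among those tested, so these counts follow in part from the filter on low counts. Over the 14274 genes tested in this setting, 3759, 3600, 2858 and 3392 were higher in these groups and 4277, 4010, 3532 and 3888 lower. With all hormone-free cells, 25.9%, 25.5%, 19.2% and 23.7% of all genes tested were higher and 30.9%, 29.5%, 25.6% and 28.4% lower. Of the listed target genes, Slc2a2, Pdx1 and G6pc2 are also in the beta marker list and Ttr in the alpha list.

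FOXO targets, 15 tested of 18, counted 2 higher and 10 lower in insulin, 3 and 7 in Gcg, 1 and 8 in Sst and 2 and 6 in Ppy cells (medians of -1.21, -0.47, -1.31 (-1.23 with genes at their limit) and -0.80). Of all genes tested, 25.9%, 25.5%, 19.2% and 23.7% were higher in these groups and 30.9%, 29.5%, 25.6% and 28.4% lower. Pdk4, a brake on glucose oxidation, was at 144 and 141 CPM in Gcg cells, 30.1 and 36.9 in Ppy cells, 22.0 and 25.9 in hormone-free cells and 0.369 and 0.842 in insulin cells, with 0 UMIs in Sst cells. It rose in Gcg cells (2.50, edgeR adjusted p = 6.78e-07) and fell in insulin cells (-5.21, 5.79e-07). Cat, the catalase gene, had 142 and 176 UMIs in hormone-free cells and at most 6 in any single-hormone group. Klf2, active in endothelium and lymphocytes, was at 277 and 330 CPM in hormone-free and 8.12 and 10.1 in insulin cells. In Sst cells it was 63.7 and 6.70 CPM, and the endothelial marker list was likewise at 624 and 53.6 CPM there; its part in the Sst values was not tested. Pck1 had 15 and 20 UMIs in hormone-free cells and at most 6 in any single-hormone group. Without the ductal-list cells 14 of the list were tested, with 2 higher and 8 lower in insulin, 3 and 5 in Gcg, 1 and 8 in Sst and 3 and 6 in Ppy cells, and Pdk4 was then also called higher in Ppy cells (0.89).

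Regulators of FOXO1, 19 tested of 20, counted 2 higher and 7 lower in insulin, 1 and 8 in Gcg, 0 and 7 in Sst and 0 and 6 in Ppy cells (medians of -0.27, -0.26, -0.44 and -0.22). The shares of all genes tested were 25.9%, 25.5%, 19.2% and 23.7% higher and 30.9%, 29.5%, 25.6% and 28.4% lower. Sgk1, a kinase that phosphorylates FOXO proteins, was at 313 and 280 CPM in hormone-free cells and 13.3 and 11.8 in insulin cells. Ywhaz, a 14-3-3 protein that holds FOXO in the cytoplasm, was at 353 and 410 CPM in hormone-free cells and 172 and 155 in insulin cells, and fell in all 4 groups (-1.15 to -1.76). Pik3r1, the regulatory subunit of PI3-kinase, was 168 and 166 CPM in insulin cells, 63.6 and 64.5 in Gcg cells and 181 and 167 in hormone-free cells, and fell in Gcg (-1.49, edgeR adjusted p = 7.23e-06), Sst and Ppy but not in insulin cells (-0.08, adjusted p = 0.722). Pik3cb was 5.17 and 10.1 CPM in insulin cells against 16.3 and 23.6 in hormone-free cells. The counts were 1 and 9, 0 and 8, 0 and 7 and 0 and 6 without the ductal-list cells.

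The genes most like each member over the 14 group sums were picked by Pearson r of log2(CPM + 1), as a description. The search covered 8551 genes whose mean reached 20 CPM. Foxa2 was closest to Slc16a12 (r = 0.986), Tuft1 (0.976) and Kcnk16 (0.973), and Foxa3 to Pfkm (0.955), Slc35g2 (0.953) and Prkcz (0.949). Hnf4a was closest to Mef2c (0.943), Hspa12b (0.926) and Adgrl2 (0.923), and Foxo1 to Rab7 (0.905), Sirpa (0.891) and Sh3pxd2a (0.876). The sums share 2 libraries and 7 groups, and those of Foxa2 and Foxa3 are set mostly by the gap to hormone-free cells. Ductal-list cells held 94.5% and 97.7% of the hormone-free Hnf4a UMIs, so a match over these sums does not place Hnf4a and another gene in the same cells.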

How the data were processed

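The authors deposited whole-number UMI counts per gene and cell barcode, 1 table per library. Per the study's methods, Cytonaut kept barcodes above a knee in depth (UMI-tools), aligned reads to exons of GRCm38 with Ensembl genes and removed duplicates; intronic reads and empty barcodes are therefore not in the counts, and low genes such as Foxa1 rest on few UMIs. Strand handling is not given in the sources used here. The 5 genes, the lists and the tests were chosen with earlier results of these data known.

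Cells were grouped by hormone (1% of UMIs) in Python 3.11.15, and groups with at least 20 cells in each library were summed per library, with the 5 hormone genes left out. The 14 sums (298300 to 2823605 UMIs) entered 1 edgeR 4.0.16 fit in R 4.3.3 (TMM, filterByExpr with a minimum count of 10, glmQLFit, glmQLFTest, 7 residual degrees of freedom), with 14 contrasts, Benjamini-Hochberg adjusted over 14955 genes each and called under 0.05. SE is the log2 fold change divided by the root of F. Cells were not replicates; p-values measure the spread between 2 technical libraries of 1 preparation. An exact two-sided permutation test of 2 against 2 cannot go below 0.333. Intervals are exact Poisson or Clopper-Pearson, 95%, and a count of 0 allows 3 counts. Scrublet in scanpy 1.11.5 marked 8 doublets per library, which were kept. Named genes were the 5, the 4 genes of each list with the largest absolute log2 fold change among those called in a single-hormone group against hormone-free cells, and the 3 genes most like each member; some genes that this rule names, and the counts over the other HNF and ONECUT genes, are not reported here. The fit was tested on simulated data. Alternatives were thresholds of 0.5% and 2%, removal of doublets, of deep cells or of ductal-list or pan-endocrine-list cells (the last 2 chosen after seeing the data), hormone genes kept, other scalings, DESeq2 1.42.0, no filter, a library block and 1 library at a time.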

Additional observations from a re-analysis of the deposited data

How the results depend on the processing

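Over 56 contrasts of the 4 tested genes and 12 alternatives each, 640 of 672 values kept their direction and side of the threshold, 9 lost and 6 gained a call, and 17 changed sign. Without the ductal-list hormone-free cells, Hnf4a turned to 3.12 in insulin, 2.90 in Gcg, 3.74 in Sst, 3.18 in Ppy, 3.09 in Gcg and Ppy and 4.12 in Sst and Ppy cells, and Foxo1 in insulin cells to -0.15. In the same setting Foxo1 passed in Sst (-0.67) and Ppy cells (-0.40), which made 4 genes called in Sst cells. Without deep cells, Foxo1 in insulin cells was -0.0042 and passed in Sst cells (-0.54), and Hnf4a in Ppy cells (-0.67) and in cells with Gcg and Ppy (-1.02) did not pass. DESeq2 size factors let Foxo1 pass in Sst cells (-0.44).

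Values near 0 that were not called changed sign as follows. Foxa3 in Sst against Ppy cells was 0.16 at a threshold of 0.5%, 0.12 without deep cells, 0.034 with DESeq2 size factors, 0.080 with no scaling and 0.035 with DESeq2, and Foxa2 0.0071 without deep cells. In Sst and Ppy against Sst cells, Foxa2 was 0.085 at 0.5%, and Foxa3 0.056 and Foxo1 -0.068 at 2%. At 2%, Hnf4a passed between Gcg and Sst cells (-1.15). The higher Foxo1 in insulin than in Sst cells was not called at 0.5% or 2%, without pan-endocrine-list cells, with either other scaling, with DESeq2 or with the block. The cause of these changes was not tested.

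With 1 library at a time (values with no test), log2 fold changes against hormone-free cells in insulin, Gcg, Sst and Ppy cells ranged over 1.85 to 1.94, 1.38 to 2.20, 2.31 to 2.62 and 2.00 to 2.97 for Foxa3, and over -1.46 to -0.96, -1.50 to -1.34, -0.66 to -0.54 and -1.17 to -1.13 for Hnf4a. Foxo1 changed sign between libraries 1 and 2 in insulin (0.47 and -0.13), Ppy (0.12 and -0.28) and Sst and Ppy cells (0.12 and -0.39), and in Gcg and Ppy cells it was -0.15 and -0.65. No scaling beyond the total moved the median of all genes by 0.16 in Sst against hormone-free cells and by -0.13 in insulin against Sst cells, where 35.7% in place of 51.7% of called genes were higher. Library numbers did not pair the sums (correlations of deviations from -0.09 to 0.14 over 21 pairs). With the replicate block, Foxo1 in insulin against Sst cells was 0.52 with an edgeR adjusted p of 0.0636. Counts of genes called were within 1.5 times in every comparison with hormone-free cells. The depth limits Foxa1 and every comparison that rests on the Sst group or on hormone-free UMIs of Foxa2, Foxa3 and Hnf4a.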
